A study of Mus musculus with 8 samples.

Results

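The Cyp4 fatty acid omega-hydroxylases of mouse liver were followed through 10 genes chosen by name, Cyp4a10, Cyp4a14, Cyp4a12a, Cyp4a12b, Cyp4a31, Cyp4a32, Cyp4f13, Cyp4f14, Cyp4f15 and Cyp4v3, out of 35896 genes in the data. Each gene's value is the sum of the estimated counts of its transcripts. Livers came from C57BL/6 mice (C57BL/6J in the study's methods) that carried a portal vein catheter fed by a subcutaneous osmotic pump for 2 weeks, 4 mice with normal saline and 4 mice with 4-hydroxyphenylacetic acid (4-HPAA), a product of gut microbial polyphenol metabolism, at 55 mM in normal saline. Pumps ran at 0.25 µL per hour. The mice were 8 to 10 weeks old when purchased, by the study's methods, and were housed singly after surgery on standard chow. Their age when the livers were taken is not given in the sources used here. The labels give no difference between the groups other than the pump content, and both groups share the operation and the catheter. Sex is not given in the labels, and the methods name both sexes for the study as a whole. By the RNA of Y-linked genes, given below, all 8 livers read as male.

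Enzymes of the Cyp4 family are cytochromes P450 of the endoplasmic reticulum that add oxygen to the last carbon of a fatty acid, the omega position, with electrons from cytochrome P450 reductase. The product is oxidised to a dicarboxylic acid and shortened in peroxisomes, a route that matters most when free fatty acids are abundant, and arachidonic acid is turned by some of the enzymes into 20-HETE, a lipid that acts on blood vessels. In mouse liver, Cyp4a10 and Cyp4a14 are classic targets of the fatty acid receptor PPARα, and Cyp4a12a and Cyp4a12b are higher in males under control of androgen and growth hormone. Cyp4f enzymes also inactivate leukotriene B4, and Cyp4v3 is the mouse counterpart of the human gene mutated in Bietti crystalline dystrophy.

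All 6 Cyp4a genes lie on chromosome 4 and the 3 Cyp4f genes on chromosome 17 (GRCm38, GENCODE M21). In order along chromosome 4 they are Cyp4a12a at chr4:115299046-115332815, Cyp4a12b at chr4:115411624-115439034, Cyp4a14 at chr4:115486200-115496142, Cyp4a10 at chr4:115518264-115533649, Cyp4a31 at chr4:115563649-115579015 and Cyp4a32 at chr4:115600969-115621602. Of these, Cyp4a14 alone is on the minus strand. Cyp4f15 is at chr17:32685627-32703352 on the plus strand, Cyp4f14 at chr17:32905070-32917342 and Cyp4f13 at chr17:32924688-32947402 on the minus strand, and Cyp4v3 is at chr8:45304944-45333216 on the minus strand. The part of the coding sequence that holds the cysteine codon is shown for the main transcript of 7 genes, because this cysteine binds the haem iron that makes the protein a cytochrome P450. The cysteine codon is in capitals.
Cyp4a10, coding bases 1345 to 1374: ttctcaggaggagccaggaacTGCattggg
Cyp4a14, coding bases 1339 to 1368: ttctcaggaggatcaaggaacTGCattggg
Cyp4a12a, coding bases 1342 to 1371: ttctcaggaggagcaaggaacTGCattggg
Cyp4f13, coding bases 1378 to 1407: ttctcagcggggaccaggaacTGCatagga
Cyp4f14, coding bases 1381 to 1410: ttctcggcgggacccaggaacTGCatagga
Cyp4f15, coding bases 1396 to 1425: ttctccgctgggcccaggaacTGCatagga
Cyp4v3, coding bases 1378 to 1407: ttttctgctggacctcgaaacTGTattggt
Cyp4a12b has the same letters here as Cyp4a12a, and Cyp4a32 the same as Cyp4a10. Cyp4a31 has 2 main transcripts, of which Cyp4a31-202 (coding length 1530 bases, 12 exons) has the letters of Cyp4a10 and Cyp4a31-201 (1332 bases, 11 exons) lacks these codons.

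The likeness of the genes bears on how reads were divided between them. Over 1527 coding bases Cyp4a12a and Cyp4a12b differ at 23 (98.5% identical), and Cyp4a10 and Cyp4a32 differ at 43 of 1530 (97.2%). Cyp4a31-201 is 96.3% identical to each of Cyp4a10 and Cyp4a32. Cyp4a14 stands further off, at 76.1% with Cyp4a10. Within the coding sequence, only reads over differing bases tell 2 such genes apart. The windows of 60 coding bases with the most differences are shown for the 2 closest pairs, with the differing bases in capitals.
Cyp4a12a, coding bases 624 to 683: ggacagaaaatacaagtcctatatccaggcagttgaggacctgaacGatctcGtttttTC
Cyp4a12b, coding bases 624 to 683: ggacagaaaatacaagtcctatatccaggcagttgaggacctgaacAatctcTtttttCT
Cyp4a10, coding bases 200 to 259: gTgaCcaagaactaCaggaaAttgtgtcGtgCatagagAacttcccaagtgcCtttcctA
Cyp4a32, coding bases 200 to 259: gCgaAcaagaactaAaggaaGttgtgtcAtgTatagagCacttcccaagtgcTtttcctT
Of the stretches of 31 bases in the main transcript, the default length that kallisto compares, 97.9% were found in no other gene for Cyp4a14 and between 90.2% and 92.5% for Cyp4v3 and the 3 Cyp4f genes. For Cyp4a31 this share was 69.0%, for Cyp4a10 54.5%, for Cyp4a12a 37.8%, for Cyp4a12b 37.1% and for Cyp4a32 34.7%. Cyp4a12a shared 62.2% of its stretches with Cyp4a12b, and Cyp4a32 shared 51.2% with Cyp4a10. Values of these 5 genes therefore rest in part on how the program split shared reads.

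The libraries held between 29559978 and 30673398 estimated counts. Hepatocyte markers (Alb, Ttr and others) summed to between 100500 and 128400 counts per library scaled to 1000000 (CPM, normalised by TMM), and no marker of the 6 other liver or blood cell types checked was at 0. Genes on the Y chromosome (Ddx3y, Eif2s3y, Kdm5d and Uty) summed to between 152 and 180 CPM in all 8 libraries, so each liver reads as male. Of 14 genes that are higher in female liver, 6 were measured well enough to test, and each was lower with 4-HPAA (median log2 fold change -1.07), with the sum between 45.4 and 356 CPM with normal saline and between 37.5 and 69.5 CPM with 4-HPAA; of the 6, 1 had an unadjusted p under 0.05, beside 1.73% of all genes tested. Red blood cell genes summed to between 247 and 2561 CPM with normal saline and between 152 and 735 CPM with 4-HPAA. One library, normal saline replicate 1, stood apart for several Cyp4a genes. It was the lowest of the 8 for 6 of 10 male-biased genes, and normal saline replicate 4 was the lowest for the other 4. The Cyp4a results that rest most on normal saline replicate 1 are given with and without it, except some correlations between Cyp4 genes.

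By mean level, Cyp4a10 and Cyp4a14 were the highest of the 10 Cyp4 genes in these livers. Per transcript length (TPM, counts per transcript length scaled to 1000000, mean ± SD over 8 livers), Cyp4a10 was at 403 ± 84.9 and Cyp4a14 at 401 ± 157, 26.4% and 26.3% of the level of the 10 genes. Their part differed between livers. In normal saline replicate 1 they were at 535 and 696 of the 1834 TPM of the 10 genes. In 4-HPAA replicate 2 they were at 336 and 278 of 1446 TPM. Cyp4v3 (162 ± 26.8 TPM) and Cyp4f14 (160 ± 11.4 TPM) followed, and every liver had more Cyp4a14 than Cyp4v3. Next came Cyp4f15 (125 ± 13.2 TPM) and Cyp4a12a (100.6 ± 43.3 TPM), which changed places between livers, with Cyp4f15 higher in 5 of 8. The lower 4 were Cyp4f13 (65.1 ± 2.62 TPM), Cyp4a32 (54.7 ± 4.49 TPM), Cyp4a12b (39.2 ± 14.4 TPM) and Cyp4a31 (15.1 ± 3.88 TPM). Along this order the ranges of neighbours overlapped except between Cyp4a14 and Cyp4v3 and between Cyp4f13 and Cyp4a32.

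**Figure D1:**
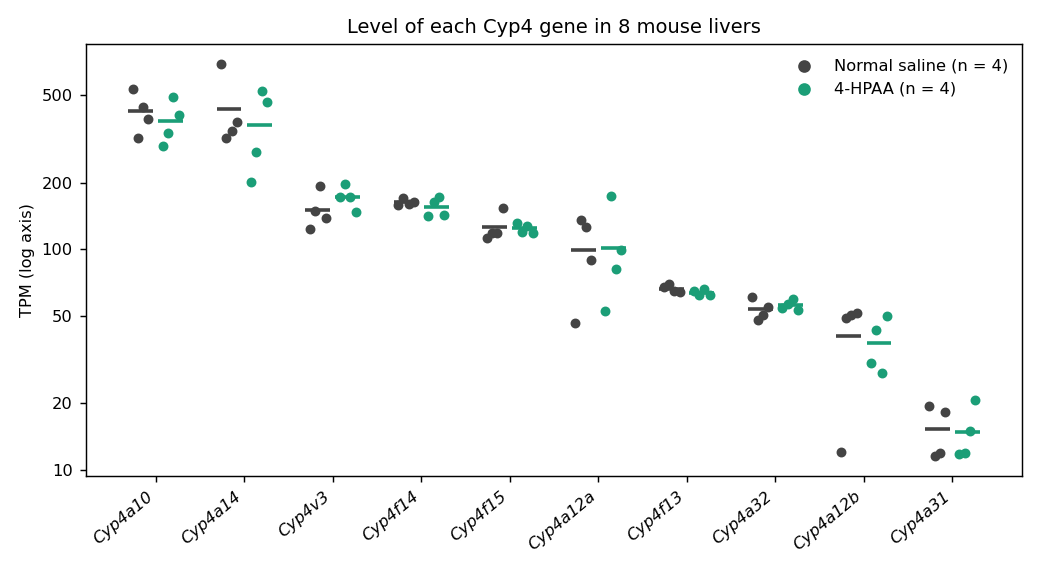
TPM of each Cyp4 gene on a log axis in 4 normal saline livers (grey) and 4 4-HPAA livers (green), with a bar at each group's mean. The groups overlap for every gene, Cyp4a10 and Cyp4a14 lie above the rest, and Cyp4a14, Cyp4a12a and Cyp4a12b spread most.

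The comparison of 4-HPAA with normal saline asked whether the infused metabolite changed liver RNA. No Cyp4 gene passed the test. Of the 10 genes, 0 had an adjusted p under 0.05 (quasi-likelihood test of edgeR, Benjamini-Hochberg adjustment over 12877 genes), and 0 had an unadjusted p under 0.05, beside 1.73% of all genes tested. The groups overlapped for each of the 10, while 1.20% of all genes tested had groups that did not overlap. Over all genes, 0 passed the adjusted threshold, 223 had an unadjusted p under 0.05 and DESeq2 called 2, none of them a Cyp4 gene. Among the 10, 3 fold changes were above 0 and 7 below, with a median of -0.05 on the log2 scale beside 0.00083 for all genes. Fewer cells of a type and less RNA per cell cannot be told apart in whole liver.

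Cyp4a10, one of the PPARα-inducible hydroxylases, was at 662, 423, 567 and 514 CPM in normal saline replicates 1 to 4 and at 397, 422, 620 and 542 CPM in 4-HPAA replicates 1 to 4. The log2 fold change was -0.13 (SE 0.17, 95% interval -0.51 to 0.25), and it lay between -0.26 and -0.019 with 1 library left out, the latter without normal saline replicate 1. Both the lowest and the highest livers are replicate 1 of their group, and the groups covered nearly the same range.

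Cyp4a14, its inducible neighbour, was at 919, 458, 456 and 532 CPM with normal saline and at 292, 361, 704 and 681 CPM with 4-HPAA. Normal saline replicate 1 was high, the 4-HPAA livers split into a low and a high pair, and the groups overlapped. The log2 fold change was -0.21 (SE 0.32, 95% interval -0.93 to 0.50), and it turned to 0.08 without normal saline replicate 1.

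The male-biased pair spread even more. Cyp4a12a, which makes 20-HETE, was at 66.2, 206, 185 and 134 CPM with normal saline and at 81.3, 252, 118 and 150.9 CPM with 4-HPAA (log2 fold change 0.03, SE 0.39, 95% interval -0.84 to 0.89). Cyp4a12b was at 16.9, 73.0, 73.1 and 76.9 CPM with normal saline and at 46.7, 61.1, 39.3 and 75.6 CPM with 4-HPAA (log2 fold change -0.11, SE 0.40, 95% interval -1.001 to 0.79). Normal saline replicate 1 was the lowest of all livers for both genes, while 3 of the 4 normal saline livers lay close together for Cyp4a12b. Without that replicate the log2 fold change of Cyp4a12a was -0.22 and that of Cyp4a12b was -0.42. As a share of the summed level of the pair, Cyp4a12a held 72.0% ± 6.69 with normal saline and 71.2% ± 7.78 with 4-HPAA (n = 4 each; exact permutation test, two-sided, p = 0.943).

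The close relatives of Cyp4a10 were low, and the groups overlapped. Cyp4a31 was at 24.7, 15.4, 16.6 and 23.3 CPM with normal saline and at 15.9, 14.2, 18.2 and 27.4 CPM with 4-HPAA (log2 fold change -0.08, SE 0.22). Cyp4a32 was at 48.3, 39.2, 41.4 and 44.8 CPM with normal saline and at 45.4, 44.3, 46.7 and 44.7 CPM with 4-HPAA (log2 fold change 0.06, SE 0.08). The highest Cyp4a32 liver was 1.23 times the lowest, although Cyp4a10, with which it shares reads, varied 1.67 times. When Cyp4a10, Cyp4a31 and Cyp4a32 were added into 1 feature the log2 fold change was -0.11, below 0 as for Cyp4a10. Cyp4a10 made up most of that sum (mean 518 CPM, beside 44.35 for Cyp4a32 and 19.47 for Cyp4a31), so the shared sign says little about the split of reads.

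The Cyp4f enzymes act on leukotriene B4 and long fatty acids, and Cyp4f14 and Cyp4f13 varied little between mice. Cyp4f14 was at 202, 228, 207 and 216 CPM with normal saline and at 198, 205, 218 and 193 CPM with 4-HPAA, a log2 fold change of -0.07 (SE 0.08, 95% interval -0.24 to 0.10). Cyp4f13 was at 61.0, 66.0, 60.5 and 59.7 CPM with normal saline and at 64.6, 54.2, 60.03 and 61.6 CPM with 4-HPAA (-0.04, SE 0.07). Intervals for both genes lay within 0.24 of 0 on the log2 scale. Cyp4f15 was at 114, 136, 128 and 174 CPM with normal saline and at 150, 125, 138 and 139 CPM with 4-HPAA (-0.00081, SE 0.13); normal saline held both its lowest and its highest liver.

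Cyp4v3, an omega-hydroxylase of medium-chain and polyunsaturated fatty acids, was at 276, 357, 449 and 329 CPM with normal saline and at 422, 450, 394 and 353 CPM with 4-HPAA. It had the largest rise of the 10, a log2 fold change of 0.20 (SE 0.14, 95% interval -0.12 to 0.52, unadjusted p = 0.197 in the edgeR fit). The lowest 4-HPAA liver lay below the 2 highest normal saline livers. Without normal saline replicate 3 the log2 fold change was 0.34 (SE 0.12) with an unadjusted p of 0.0221 in the edgeR fit, beside 2.01% of all genes with a p under 0.05 in that fit, and the adjusted p was 1.00 with Benjamini-Hochberg adjustment.

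**Figure D2:**
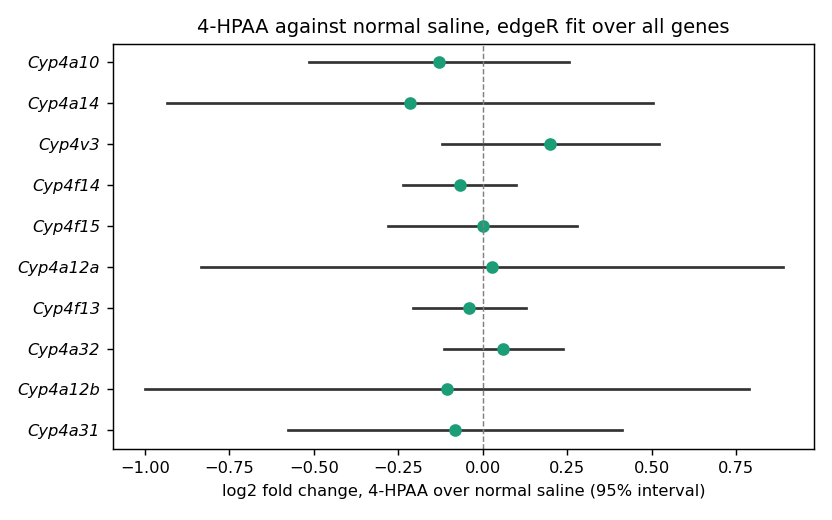
Log2 fold change of each Cyp4 gene, 4-HPAA over normal saline, from the edgeR fit over all genes (points) with 95% intervals (lines). Each interval crosses 0, and the intervals of Cyp4a14, Cyp4a12a and Cyp4a12b are the widest.

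Sums per subfamily differed by less than the spread of the mice. The 6 Cyp4a genes together were at 1371, 884, 1024 and 986 TPM with normal saline and at 643, 901, 1200 and 1096 TPM with 4-HPAA, a mean of 1066 ± 211 against 960 ± 245 TPM (n = 4 each; exact permutation test, two-sided, p = 0.514). Not divided by length, the log2 difference of the Cyp4a sum was -0.16, beside -0.17 per length. The 3 Cyp4f genes together were at 357 ± 19.3 against 344 ± 17.6 TPM (n = 4 each; exact permutation test, two-sided, p = 0.4). With 4 mice a group the smallest p this test can give is 0.0286. Cyp4a10 and Cyp4a14 held 79.3% ± 7.44 of the Cyp4a level with normal saline and 77.4% ± 6.91 with 4-HPAA (exact permutation test, two-sided, p = 0.743, n = 4 each).

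**Figure D3:**
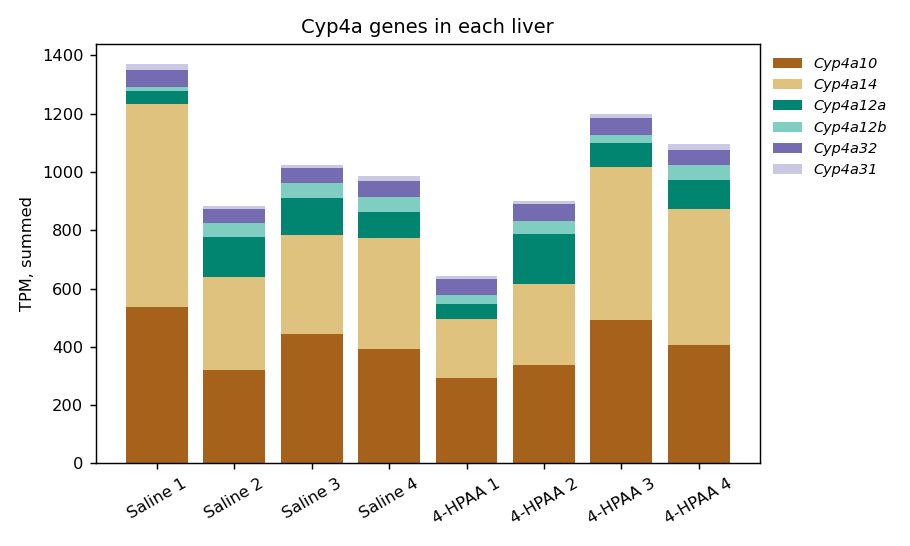
Summed TPM of the 6 Cyp4a genes in each of the 8 livers, stacked by gene. Normal saline replicate 1 has the tallest bar (1371 TPM) with the smallest part held by Cyp4a12a and Cyp4a12b, and 4-HPAA replicate 1 the shortest (643 TPM).

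Single transcripts gave no call either. Of 37 transcripts of the 10 genes, 25 passed the minimum of 10 estimated counts per library, of which 0 had an unadjusted p under 0.05 in the edgeR fit, beside 3.83% of all transcripts. The smallest p-values belonged to Cyp4f14, where Cyp4f14-202 had a log2 fold change of 0.30 (SE 0.15, unadjusted p = 0.0665, edgeR fit) and Cyp4f14-206 one of -0.46 (SE 0.23, unadjusted p = 0.0757, edgeR fit). Of the counts of the 2 Cyp4a31 transcripts shown above, the one without the haem-binding codons held 58.4% ± 2.14 with normal saline and 60.4% ± 7.63 with 4-HPAA (n = 4 each; exact permutation test, two-sided, p = 0.714).

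Mice of 1 group differed from each other far more in some Cyp4 genes than in others. The SD of log2 CPM within groups was higher for Cyp4a12b than for 98.7% of all genes tested, for Cyp4a12a than for 98.0% and for Cyp4a14 than for 95.5%. Without normal saline replicate 1 these shares were 80.6%, 95.6% and 93.8%. It exceeded that of 74.6% of genes for Cyp4a10 and 85.3% for Cyp4a31. Cyp4f14 was at the other end, above only 6.35% of genes, with Cyp4f13 above 10.4% and Cyp4a32 above 13.8%. The highest liver was 4.55 times the lowest for Cyp4a12b, 3.80 times for Cyp4a12a, 3.15 times for Cyp4a14 and 1.18 times for Cyp4f14. For Cyp4a12b 1 liver set this range, and without normal saline replicate 1 the value was 1.96 times, beside 3.10 for Cyp4a12a and 2.42 for Cyp4a14.

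Across the 8 livers the inducible genes moved together. After each group's mean was taken off log2 CPM, Cyp4a10 and Cyp4a14 had a Pearson r of 0.885 (Spearman rho 0.786), which was 0.902 without the 2 livers farthest from the median of Cyp4a10 and 0.842 without normal saline replicate 1. Cyp4a14 went with Cyp4a31 at r = 0.755 and against Cyp4v3 at r = -0.733, or 0.694 and -0.567 without normal saline replicate 1. Pairs without Cyp4a14 were as strong over the 8 livers. Cyp4a32 went against Cyp4a12a (r = -0.786) and Cyp4a12b (-0.781), and Cyp4a31 against Cyp4v3 (-0.785). Spearman rho for these pairs, in turn, was -0.833, -0.452 and -0.857. Without the 2 livers farthest from the median of Cyp4a12a, Cyp4a12b or Cyp4a31, r was -0.722, -0.225 and -0.599. Normal saline replicate 1 had the highest Cyp4a32 and the lowest Cyp4a12a, Cyp4a12b and Cyp4v3, and these pairs are not given without it. Cyp4a12a and Cyp4a12b had r = 0.770 (rho 0.571), and 0.494 without normal saline replicate 1; these 2 genes share reads. The ratio of Cyp4a14 to Cyp4a12a, per length, was 15.0 in normal saline replicate 1 and between 1.59 and 6.401 in the other livers. These correlations describe 8 libraries, in which all genes of a point share 1 liver, 1 library and its scaling, and no test is attached to them.

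Other target genes of PPARα varied with the inducible pair from mouse to mouse. Among 36 such genes, 14 (38.9%) had r of at least 0.7 with Cyp4a14, beside 6.05% of all genes tested, and 9 (25.0%) had it with Cyp4a10, beside 5.52%. Without normal saline replicate 1 these numbers were 16 (44.4%, beside 8.92%) and 10 (27.8%, beside 7.35%). Acot1, a cytosolic acyl-CoA thioesterase, had r = 0.936 with Cyp4a14 (rho 0.905), and 0.940 without normal saline replicate 1. Messenger RNA of Ppara itself had r = -0.0983 with Cyp4a14 and 0.0731 with Cyp4a10, or -0.588 and -0.265 without that liver.

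Circadian clock genes followed the same livers. With Cyp4a10, 3 of 12 clock genes had r of at least 0.7 and 4 had r of at most -0.7 (25.0% and 33.3%, beside 5.52% and 5.67% of all genes tested). With Cyp4a14 the numbers were 2 and 4 (16.7% and 33.3%, beside 6.05% and 7%). Genes named here were picked after their values were seen. Arntl, the activator of the clock, went with Cyp4a10 (r = 0.953, rho 0.905), and Dbp, an output of the clock, against it (r = -0.946, rho -0.929). Arntl was low, between 0.618 and 3.46 CPM. Cry1, a repressor, went with Cyp4a14 (r = 0.967, rho 0.905), and Nr1d1, the nuclear receptor REV-ERBα, against it (r = -0.948, rho -0.810). Without normal saline replicate 1 these 4 values were 0.944, -0.928, 0.951 and -0.955. Nr1d1 was at 13.1, 21.3, 16.9 and 19.3 CPM with normal saline and at 31.4, 23.9, 13.9 and 14.1 CPM with 4-HPAA, so the 4-HPAA livers low in Cyp4a14 were those high in Nr1d1. Between the groups, 0 of 12 clock genes had an unadjusted p under 0.05 in the edgeR fit, beside 1.73% of all genes tested. The hour of collection and the feeding state at necropsy are not given in the sources used here, and their part in the spread of Cyp4a10 and Cyp4a14 was not tested. Kupffer cell markers summed to between 69.4 and 219 CPM with normal saline and between 62.6 and 188 CPM with 4-HPAA, and 2 of 5 (40%) had r of at most -0.7 with Cyp4a14, beside 7% of all genes tested; their part was not tested.

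Among the companions of the male-biased pair were male-biased genes, and 1 liver carried most of it. Of 10 such genes, 5 had r of at least 0.7 with Cyp4a12b (50%, beside 4.02% of all genes tested) and 4 with Cyp4a12a (40%, beside 3.50%). Without normal saline replicate 1 the numbers were 1 (10%, beside 4.74%) and 0 (beside 3.63%). C8b, a complement component, was at 272 CPM in that liver and between 319 and 358 CPM in the others. C8b and Cyp4a12b had r = 0.975 with 8 livers and 0.798 with 7. The liver in question thus had the lowest Cyp4a12a, Cyp4a12b and C8b, with Y-linked genes at 166 CPM, inside the range of the rest. Alas2, a red blood cell gene, had r = 0.909 with Cyp4a12a and 0.908 with Cyp4a12b, as 1 of 5 red blood cell genes past 0.7 for each (0.857 and 0.584 without normal saline replicate 1), and its part was not tested. Cyp4a12b also had r of at most -0.7 with 2 of 3 cholangiocyte markers (66.7%) and 2 of 4 stellate cell markers (50%). For female-biased genes it was 2 of 6 (33.3%), each beside 4.19% of all genes tested. With Cyp4a12a, 1 of 6 female-biased genes and 0 of the cholangiocyte and stellate cell markers passed that bound, beside 3.23%. The part of these genes was not tested.

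**Figure D4:**
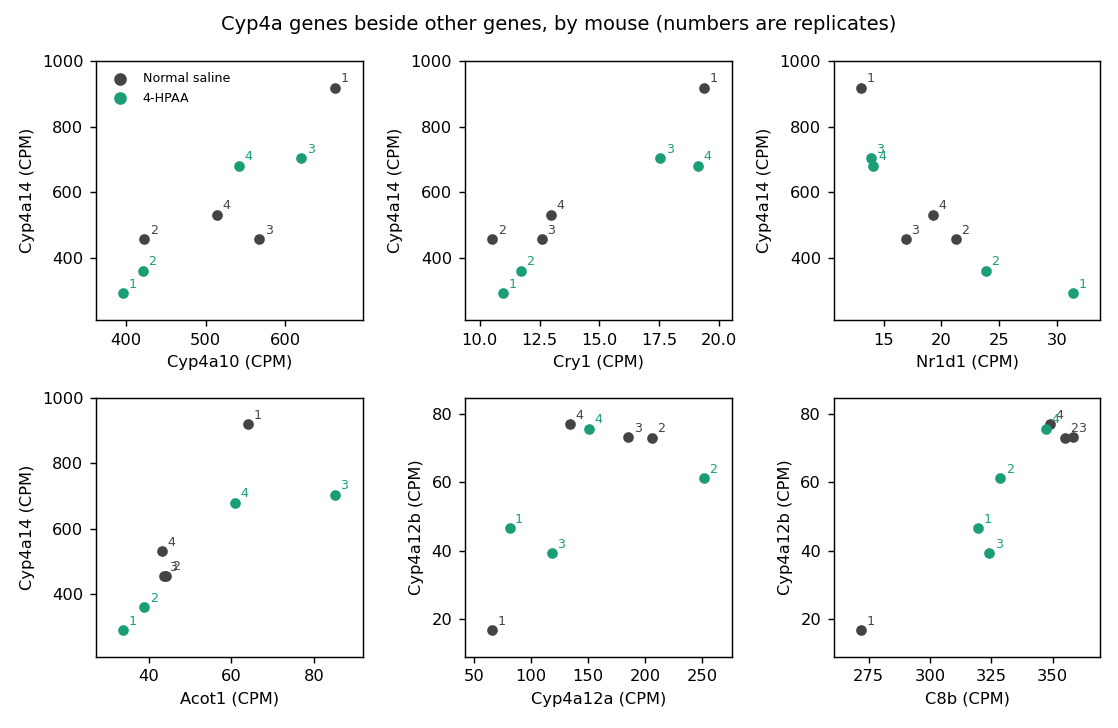
CPM of Cyp4a14 against Cyp4a10, Cry1 and Nr1d1 (top) and Acot1 (bottom left), and of Cyp4a12b against Cyp4a12a and C8b (bottom middle and right), 1 point per liver, grey for normal saline and green for 4-HPAA, with replicate numbers. Livers with more Cyp4a14 have more Cyp4a10, Cry1 and Acot1 and less Nr1d1, while normal saline replicate 1 has the lowest Cyp4a12a, Cyp4a12b and C8b.

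The genes of all those tested whose pattern was most like that of Cyp4a14, over 8 livers with group means taken off, were Gfra1 (r = 0.983), Cebpb (0.977) and Lgalsl (0.9752). For Cyp4a12a they were Stau2 (r = 0.968), Ctbs (0.963) and Rrn3 (0.958), and for Cyp4f14 Ranbp10 (0.957), March3 (0.953) and Stx7 (0.949). These are the top ranks among the 12877 genes tested, with the 10 Cyp4 genes left out.

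Values of genes that work beside the Cyp4 enzymes were read from the same fit. Of 93 genes in 6 lists (other Cyp4 genes, redox partners, PPAR receptors, PPARα targets, downstream oxidation and eicosanoid enzymes), 79 were tested, with a median log2 fold change of 0.03, and 2 had an unadjusted p under 0.05 (2.53%, beside 1.73% of all genes tested). These were Rxrg, a retinoid X receptor (log2 fold change -0.44, SE 0.17, unadjusted p = 0.0270, edgeR fit), and Acot8, the peroxisomal thioesterase that releases shortened dicarboxylic acids (0.24, SE 0.09, unadjusted p = 0.0274, edgeR fit). Both had an adjusted p of 1.00 (edgeR, Benjamini-Hochberg), and Rxrg lay between 2.77 and 5.33 CPM.

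Por, the P450 reductase that passes electrons to the Cyp4 enzymes, had a log2 fold change of -0.01 (SE 0.12) and Cyb5a, cytochrome b5, one of 0.01 (SE 0.09). Of 6 redox and haem genes, 0 had an unadjusted p under 0.05 in the edgeR fit, beside 1.73% of all genes tested. Among 12 receptors and partners, Ppara was at 0.14 (SE 0.14) and Rxra at -0.02 (SE 0.08).

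Of 36 PPARα targets, 0 had an unadjusted p under 0.05 in the edgeR fit, beside 1.73% of all genes tested, with 27 above 0 and 9 below and a median of 0.05. This split rested on 4-HPAA replicate 4, the highest liver for 20 of the 36 genes: without it 14 were above 0 and 22 below, with a median of -0.02. Log2 fold changes of the named peroxisomal members were 0.11 (SE 0.11) for Ehhadh, the bifunctional enzyme, and 0.14 (SE 0.16) for Acaa1b, the thiolase. In mitochondria, Cpt1a, which admits fatty acids, was at 0.05 (SE 0.09) and Pdk4, the pyruvate dehydrogenase kinase, at -0.08 (SE 0.45). Acot1 was at 0.17 (SE 0.27), Vnn1, a pantetheinase, at 0.18 (SE 0.14), Plin2, a lipid droplet coat protein, at 0.06 (SE 0.13) and Fabp1, the liver fatty acid carrier, at -0.01 (SE 0.14). The secreted factors Fgf21 and Angptl4 were at 0.52 (SE 0.77) and -0.07 (SE 0.10).

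Of the enzymes that take the omega-hydroxylated acid further, Adh1, an alcohol dehydrogenase, was at -0.12 (SE 0.11) and Aldh3a2, the fatty aldehyde dehydrogenase, at -0.08 (SE 0.12). Of 21 tested, 1 (Acot8, 4.76%) had an unadjusted p under 0.05 in the edgeR fit, beside 1.73% of all genes tested. Among eicosanoid enzymes, Ephx2, the soluble epoxide hydrolase, was at 0.08 (SE 0.10). Of 8 eicosanoid genes tested, 0 had an unadjusted p under 0.05 in the edgeR fit, beside the same 1.73%.

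Of the other 10 Cyp4 genes, 3 were expressed enough to test. Cyp4b1 lay between 6.56 and 13.7 CPM (log2 fold change 0.11, SE 0.20), Cyp4f17 between 10.9 and 19.7 CPM (0.15, SE 0.16) and Cyp4f16 between 1.26 and 3.78 CPM (-0.27). Cyp4f18, known from neutrophils, was between 0.194 and 0.534 CPM, and Cyp4a29, Cyp4a30b and Cyp4f37 had no counts in any library.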

How the data were processed

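Liver RNA libraries (directional mRNA kit, paired-end reads of 100 bp) of 4 normal saline and 4 4-HPAA mice were analysed. The authors ran kallisto and deposited estimated counts per transcript, neither normalized nor pooled; their methods name NCBI annotations of GRCm38.p6, while the table lists Ensembl transcripts. Transcripts were assigned to genes with GENCODE M21 and their estimated counts added up (116640 of 119414 transcripts matched; 2774 left out, at most 1.08% of a library's counts) and rounded. The test was the quasi-likelihood F test in edgeR 4.0.16 (R 4.3.3), after TMM scaling, on genes that had 10 counts or more in each library, and p-values were adjusted by Benjamini-Hochberg at 0.05. The SE of a log2 fold change is its size over the root of F. TPM are counts per transcript length. Libraries held 29559978 to 30673398 counts. Spread between mice, small counts and the split of shared reads each bear on precision, and their parts were not tested. Summed levels and shares were tested by exact permutation over the 8 libraries. Correlations used log2 CPM with a prior count of 2. Also run were limma-voom (limma 3.58.1), DESeq2 1.42.0, other scalings, filters and lengths, summed paralogs, a replicate block and each library left out. Steps were tested on simulated data. The Cyp4 genes, the lists and the genes named were chosen with earlier results of these data known. Genes named are the 10 members, a set of pathway genes, pathway genes with an unadjusted p under 0.05, and the 3 genes most like each of Cyp4a14, Cyp4a12a and Cyp4f14; clock genes, C8b, Alas2 and Cyp4f16 were named after their values were seen, as were Cyp4a29, Cyp4a30b and Cyp4f37. Groups come from the labels; whether mice with the same number were handled together is not given in the sources used here. Promoters and proteins were not analysed here, and some genes are not reported here.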

Additional observations from a re-analysis of the deposited data

Results flagged for a closer look

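In groups of 4 livers, a single liver far from the other 3 (its gap over the group's range above Dixon's 95% critical value) was found in 5 of 84 groups of values; chance gives about 1 in 20, or 4.2. Normal saline replicate 1 gave 4 of the 5. It had Cyp4a14 at 919 CPM, with the other normal saline livers between 456 and 532 CPM (gap 0.836 of the range). It had Cyp4a12b at 16.9 CPM, with the others between 73.0 and 76.9 CPM (0.934). Acot1 was at 64.1 CPM there and between 43.2 and 44.2 CPM in the others (0.953), and the ratio of Cyp4a14 to Cyp4a12a per length was 15.0 there and between 2.35 and 4.26 in the others (0.849); the ratio holds the same Cyp4a14 value and so is no separate case. The fifth was Cyp4b1 in 4-HPAA replicate 2, at 12.8 CPM with the others between 10.01 and 10.3 CPM (0.893).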

How the results depend on the processing

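No Cyp4 gene or transcript reached an adjusted p under 0.05 under any alternative run; DESeq2 called 2 genes over all genes, where edgeR's quasi-likelihood test called 0, and 223 genes at an unadjusted p under 0.05 became 412 and 522 with a looser filter and none, with more genes tested. The replicate numbers pair only loosely: deviations of same-numbered libraries correlated at 0.0399 to 0.481 (others -0.476 to 0.466) and 4 of 8 libraries correlated best with their own number; with the replicate block 334 genes had an unadjusted p under 0.05, and 3 pathway genes in place of 2. The block turned the log2 fold change of Cyp4a12b to 0.044, Cyp4f15 to 0.014 and Pdk4 to 0.055. Limma-voom gave 0.072 for Cyp4a12b, 0.014 for Cyp4f15, 0.031 for Pdk4 and -0.0098 for Fgf21. Summed paralogs gave -0.011 for Cyp4a12a with Cyp4a12b and -0.11 for Cyp4a32 with Cyp4a10 and Cyp4a31. Cyp4f15 was also above 0 with DESeq2 (0.00060), RLE scaling (0.00058), the looser filter (0.0037) and none (0.0035). The cause was not tested.

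Leaving out each library in turn, the log2 difference of the summed Cyp4a level ranged from -0.29 to 0.0088 (above 0 without 4-HPAA replicate 1) and the share of Cyp4a10 and Cyp4a14 differed by -4.40 to 1.54 percentage points (above 0 without normal saline replicate 1 or 4-HPAA replicate 2). Cyp4 genes at an unadjusted p under 0.05 numbered 0 to 1 (Cyp4v3, without normal saline replicate 3) and pathway genes 1 to 3, with 1 without normal saline replicate 1 or 4 or 4-HPAA replicate 1 or 2. Log2 fold changes ranged from -0.26 to -0.019 for Cyp4a10, -0.41 to 0.080 for Cyp4a14, -0.34 to 0.23 for Cyp4a12a, -0.42 to 0.046 for Cyp4a12b, -0.32 to 0.035 for Cyp4a31, -0.072 to 0.0059 for Cyp4f13 and -0.082 to 0.14 for Cyp4f15. Among pathway genes they ranged from -0.046 to 0.013 for Rxra, -0.086 to 0.066 for Por, -0.041 to 0.073 for Cyb5a, -0.13 to 0.34 for Acot1, -0.41 to 0.52 for Pdk4, -0.73 to 1.08 for Fgf21, -0.016 to 0.16 for Plin2, -0.14 to 0.058 for Fabp1, -0.0054 to 0.13 for Ephx2, -0.041 to 0.30 for Cyp4b1 and -0.0041 to 0.28 for Cyp4f17. PPARα targets above 0 numbered 14 to 32 of 36, the lowest without 4-HPAA replicate 4. This count, and the correlations and spreads without normal saline replicate 1, were added after seeing the data.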
